A study of Mus musculus with 19 samples.

Results

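The 9 genes studied here make or remove superoxide and peroxides and were followed through every library of the series. They are the superoxide dismutases Sod1 and Sod2, the peroxide-removing enzymes Cat, Gpx1, Gpx4 and Prdx5, and Cybb, Cyba and Ncf1, which encode parts of the NADPH oxidase of phagocytes. These are 9 of the 56980 genes in the count table and were chosen by name, with earlier results of these data known. All 9 passed the filter on low counts, with 353 to 20859 reads per gene and library.

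The libraries held RNA of CD11b+ cells, that is microglia and other myeloid cells captured with magnetic beads (MACS), from the brains of male mice aged 3 to 4 months. The groups were wildtype mice given PBS (n = 4), wildtype mice given LPS (n = 5), Park7/DJ-1 KO mice given PBS (n = 5) and KO mice given LPS (n = 5). LPS, a bacterial cell wall component from Escherichia coli, was injected intraperitoneally at 4 μg/g body weight, and cells were taken 6 h later. The KO carries a gene trap in Park7, which encodes the redox-sensitive protein DJ-1, in every cell of the animal, and had been backcrossed to C57BL/6NCrl. KO and wildtype mice were littermates from heterozygous pairs, and each library came from a separate mouse. Levels are given as CPM, that is reads scaled to the same total in each library after TMM normalization.

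Superoxide is the first product when oxygen takes up a single electron. In phagocytes it is made on purpose by an NADPH oxidase whose membrane core is a pair of proteins encoded by Cybb and Cyba, joined on activation by cytosolic subunits of which Ncf1 encodes the organizer. Superoxide dismutases turn superoxide into hydrogen peroxide, in the cytosol (Sod1) and in the mitochondrial matrix (Sod2), and catalase, glutathione peroxidases and peroxiredoxins then reduce the peroxides. Microglia are known for this oxidase, and Sod2 is a textbook inducible gene of inflamed macrophages.

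The stretches just before the transcription starts of 4 of the genes are shown to set beside the LPS values that follow, and were chosen with those values known. Sod2, Cybb and Prdx5 were higher after LPS, whereas Sod1 was not called. All 4 were read from the GRCm39 genome, each written 5′ to 3′ on the strand of its gene and ending at or before the base next to the start of the canonical transcript (GENCODE M39), and capitals mark motif matches. For Sod2 the stretch begins after the last base of its window that an exon of an earlier-starting Sod2 transcript covers. Exons of Gm64481, on the opposite strand, cover all 250 bases of the Sod2 window, so the stretch shown is not free of exons. For Prdx5 only the surroundings of the match are shown, because exons of the neighbouring gene Trmt112 cover 131 bases of its 250-base window.
Sod1, chr16:90017158-90017407, plus strand: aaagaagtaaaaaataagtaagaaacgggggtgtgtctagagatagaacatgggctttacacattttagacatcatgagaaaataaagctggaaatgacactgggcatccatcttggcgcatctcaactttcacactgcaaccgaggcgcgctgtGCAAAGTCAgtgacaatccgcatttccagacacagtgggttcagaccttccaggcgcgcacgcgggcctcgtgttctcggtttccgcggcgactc
Sod2, chr17:13226423-13226581, plus strand: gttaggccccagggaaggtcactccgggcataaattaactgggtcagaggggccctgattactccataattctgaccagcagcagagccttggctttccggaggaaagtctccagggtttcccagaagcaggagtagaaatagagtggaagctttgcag
Cybb, chrX:9335571-9335820, minus strand: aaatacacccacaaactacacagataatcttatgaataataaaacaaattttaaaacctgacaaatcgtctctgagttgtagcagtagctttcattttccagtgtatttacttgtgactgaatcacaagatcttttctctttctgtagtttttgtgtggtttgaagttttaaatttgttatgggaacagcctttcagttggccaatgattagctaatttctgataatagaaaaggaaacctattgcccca
Prdx5, chr19:6888003-6888031, minus strand: acgtggtgcatCTTCCTCaaaaatgtctc
A set of 3 motifs was searched on both strands in the 250 bases before the start of each gene: GAGGAAG, the core bound by the myeloid factor PU.1, TGACNNNGC, the core of the antioxidant response element, and the NF-kappaB consensus. The capitals in Sod1 are a TGACNNNGC match on the opposite strand, 95 to 87 bases before the start, and the capitals in Prdx5 are a GAGGAAG match on the opposite strand, 228 to 222 bases before the start. No match was found in these windows for the other 7 genes, Sod2 and Cybb included. Among all 21770 promoters of the same length, 10.3% held GAGGAAG, 9.69% held TGACNNNGC and 4.23% held the NF-kappaB consensus. A match describes letters and not a site in use, and a window without one is silent about the factor.

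Total counts per library ranged from 11936364 to 22788884. Park7 was at 20.6 to 32.1 CPM in the 9 wildtype libraries and at 0.457 to 5.38 CPM in the 10 KO libraries, so the labels held in every library. The 10 microglial markers summed to 24831 to 39842 CPM after PBS and 10637 to 17122 CPM after LPS, with P2ry12 and Tmem119 present in all libraries. Markers of neutrophils (9 genes) summed to 26.8 to 243 CPM after PBS and 109 to 489 CPM after LPS, and markers of monocytes (6 genes) to 136 to 331 CPM and 243 to 661 CPM, with none of these genes at 0 in a whole group. Markers of other brain cells were present and uneven: those of oligodendrocytes (5 genes) summed to 515 to 11235 CPM, highest in KO LPS mouse 1 and wildtype PBS mouse 2, and those of astrocytes (6 genes) to 201 to 4553 CPM. In bulk RNA, fewer cells of a type and less RNA per cell cannot be told apart. KO LPS mouse 5 stood apart from the others on the second principal component, which held 18.8% of the variance, and leaving it out changed no call on any of the 9 genes.

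LPS was followed by the same pattern of calls in both genotypes. Sod2, Cybb, Prdx5 and Ncf1 were higher, Cat and Gpx4 were lower, and Sod1, Gpx1 and Cyba did not pass the thresholds of adjusted p under 0.05 and |log2FC| of at least 0.5 (edgeR quasi-likelihood test, Benjamini-Hochberg over 18739 genes). Thus 6 of 9 genes were called in each genotype, against 35.9% of all genes tested in wildtype and 39.1% in KO. By direction, 4 of 9 were higher, against 18.4% of all genes in wildtype and 20.1% in KO, and 2 of 9 were lower, against 17.4% and 19%. The same 4 genes were called higher in both genotypes, as were 16.8% of all genes, and the same 2 lower, as were 15.4%. The LPS and PBS groups did not overlap in either genotype for these 6 of the 9 genes and overlapped in both for Sod1, Gpx1 and Cyba. Groups that did not overlap were found for 37.8% of all genes in wildtype and 32.8% in KO.

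**Figure D1:**
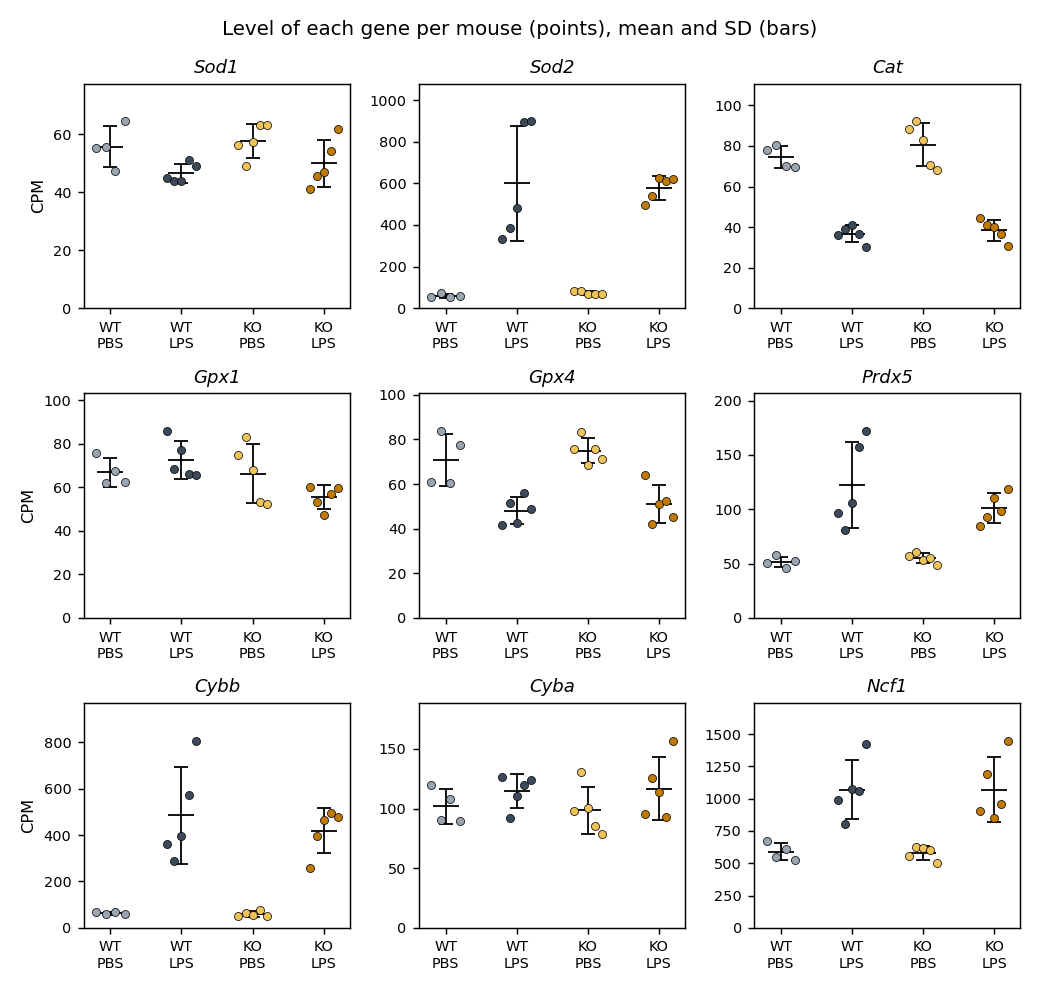
CPM of the 9 genes in each mouse (points) by genotype and treatment, with group mean and SD (bars), on linear axes that start at 0 and differ between panels. The LPS points of Sod2, Cybb, Prdx5 and Ncf1 lie above and those of Cat and Gpx4 below all PBS points of the same genotype, and Sod2 in the wildtype LPS mice runs from 334 to 900 CPM.

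Sod2 (ENSMUSG00000006818, chr17:13224095-13259591, plus strand), the manganese superoxide dismutase of mitochondria, had the largest change of the 9 genes. Positions here and for the other genes are those of GRCm39. Its level in the wildtype mice given PBS was 54.4, 74.4, 54.1 and 57.2 CPM, and in those given LPS 334, 388, 482, 896 and 900 CPM. In the KO mice it was 80.8, 82.7, 69.6, 65.5 and 67.7 CPM after PBS and 495, 541, 626, 611 and 620 CPM after LPS. Every LPS mouse was above every PBS mouse of either genotype, and wildtype LPS mice 4 and 5 were the highest of all. The difference was a log2FC of 3.32 ± 0.27 (SE) in wildtype, or 9.99-fold, with an adjusted p of 1.9e-08 (edgeR), and 2.98 ± 0.24 in KO, or 7.89-fold, with an adjusted p of 1.1e-08. By log2FC, Sod2 ranked 306th of all genes tested in wildtype and 407th in KO.

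Sod1 (ENSMUSG00000022982, chr16:90017408-90027657, plus strand), the copper and zinc enzyme of the cytosol, stayed within narrow bounds. It was at 55.3, 55.6, 47.4 and 64.5 CPM in wildtype PBS mice and at 44.8, 43.7, 43.8, 51.1 and 48.9 CPM in wildtype LPS mice. The KO PBS mice had 56.2, 49.0, 57.3, 63.0 and 63.2 CPM and the KO LPS mice 40.9, 45.4, 47.1, 54.1 and 61.8 CPM. The groups overlapped in both genotypes. The log2FC was -0.26 (95% interval -0.51 to -0.01, adjusted p = 0.0909, edgeR) in wildtype and -0.21 (-0.45 to 0.03, adjusted p = 0.142) in KO. Scaf4 lies on the opposite strand over part of Sod1 and had 814 to 1965 reads per library, where Sod1 had 574 to 1203, and the strand setting of the counting is not given in the sources used here.

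The balance of the pair was read within each library, where no scaling between libraries can move it. Per read of Sod1 there were 0.886 to 1.34 reads of Sod2 in wildtype PBS mice and 7.45 to 18.4 in wildtype LPS mice. The KO mice had 1.04 to 1.69 after PBS and 10.04 to 13.3 after LPS. The ratio thus differed 11.05-fold in wildtype and 9.20-fold in KO, with no overlap. The exact two-sided permutation test gave p = 0.00794 in each genotype, the smallest value that groups of these sizes allow.

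**Figure D2:**
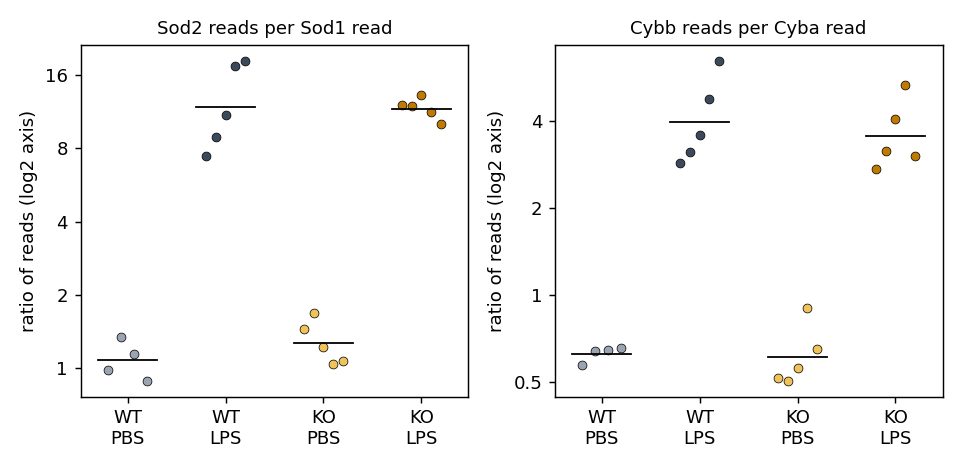
Reads of Sod2 per read of Sod1 (left) and reads of Cybb per read of Cyba (right) in each mouse, on log2 axes, with the geometric mean of each group as a line. Both ratios are higher in every LPS mouse than in any PBS mouse: the first lies at 0.886 to 1.69 after PBS and 7.45 to 18.4 after LPS, the second at 0.505 to 0.902 and 2.73 to 6.49.

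Of the other superoxide dismutase genes, Ccs, which encodes the copper chaperone of SOD1, was lower in both genotypes (log2FC -0.58 in wildtype, -0.71 in KO). Sod3, the secreted dismutase, had log2FC of -0.35 and -0.82 with adjusted p of 0.717 and 0.315 (edgeR) and was not called. Of this list of 4 genes, 1 was therefore higher and 1 lower in each genotype, where 18.4% and 20.1% of all genes tested were higher and 17.4% and 19% lower in wildtype and KO.

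Among the genes of peroxide removal, catalase and the lipid peroxidase gene Gpx4 were lower after LPS while Prdx5 was higher. Cat (ENSMUSG00000027187, chr2:103284194-103316185, minus strand) encodes catalase, the peroxisomal enzyme that splits hydrogen peroxide. It was at 78.2, 80.3, 70.0 and 69.4 CPM in wildtype PBS mice and at 36.2, 38.9, 41.3, 36.5 and 30.1 CPM in wildtype LPS mice. KO mice had 88.6, 92.3, 83.2, 70.7 and 68.2 CPM after PBS and 44.3, 40.9, 39.9, 36.6 and 30.5 CPM after LPS. No LPS mouse reached the lowest PBS mouse. The log2FC was -1.02 ± 0.12 (SE) in wildtype (adjusted p = 1.6e-06, edgeR) and -1.07 ± 0.12 in KO (adjusted p = 4.3e-07).

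Gpx4 (ENSMUSG00000075706, chr10:79883000-79892273, plus strand) encodes the glutathione peroxidase that reduces lipid peroxides in membranes and guards against ferroptosis. Wildtype mice had 60.9, 83.8, 60.6 and 77.3 CPM after PBS and 41.8, 51.5, 42.7, 55.8 and 48.9 CPM after LPS. KO mice had 75.9, 83.3, 68.7, 75.9 and 71.3 CPM after PBS and 64.1, 42.0, 51.2, 52.6 and 45.2 CPM after LPS. The groups did not overlap, but KO LPS mouse 1 came close to the lowest PBS mouse. The log2FC was -0.55 ± 0.13 in wildtype (adjusted p = 0.00201, edgeR) and -0.56 ± 0.12 in KO (adjusted p = 0.00108), just past the fold threshold. Without wildtype PBS mouse 2 the value was -0.45, without wildtype PBS mouse 4 it was -0.48, and without wildtype LPS mouse 3 it was -0.50, so that the wildtype call was lost. KO LPS mouse 1 and wildtype PBS mouse 2 also had the highest oligodendrocyte marker sums of all libraries, 11235 and 9675 CPM. In a fit that held the summed markers of oligodendrocytes, astrocytes, neurons and endothelial cells (log2 CPM) as a term, Gpx4 was at -0.54 in wildtype and -0.58 in KO and kept both calls. Without KO LPS mouse 2 the KO value was -0.49 and its call was lost. In these 4 fits the adjusted p stayed between 0.00408 and 0.0149.

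Gpx1 (ENSMUSG00000063856, chr9:108216102-108217546, plus strand), the main cytosolic glutathione peroxidase, did not pass in either genotype. It was at 76.1, 62.1, 67.4 and 62.3 CPM in wildtype PBS mice and at 86.0, 68.6, 77.2, 66.1 and 65.5 CPM in wildtype LPS mice, with overlap. In KO it was at 75.0, 83.1, 67.9, 53.5 and 52.5 CPM after PBS and 60.1, 53.4, 47.3, 57.1 and 59.9 CPM after LPS, again with overlap. The log2FC was 0.12 (95% interval -0.16 to 0.40, adjusted p = 0.528, edgeR) in wildtype and -0.26 (-0.52 to 0.01, adjusted p = 0.107) in KO.

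Prdx5 (ENSMUSG00000024953, chr19:6884065-6887792, minus strand) encodes a peroxiredoxin found in mitochondria, peroxisomes and cytosol. Its level was 50.8, 57.7, 46.1 and 52.0 CPM in wildtype PBS mice and 96.9, 80.7, 106, 157 and 172 CPM in wildtype LPS mice. KO mice had 57.0, 61.1, 53.4, 55.5 and 49.1 CPM after PBS and 84.6, 92.6, 111, 98.7 and 119 CPM after LPS. All LPS mice were above all PBS mice, and wildtype LPS mice 4 and 5 were again the highest. The log2FC was 1.25 ± 0.18 (SE), or 2.37-fold, in wildtype (adjusted p = 1.7e-05, edgeR) and 0.87 ± 0.17, or 1.83-fold, in KO (adjusted p = 2.6e-04). With the neutrophil and monocyte marker score of each library as a covariate, the KO value was 0.68 with an adjusted p of 0.0565 and the call was lost, while the wildtype value was 1.04 and kept its call. Trmt112, on the opposite strand, overlaps Prdx5 and had 175 to 466 reads per library.

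Of the 15 genes of the peroxide removal list, 12 were tested, and 3 were higher and 3 lower in each genotype, the same ones in both, where 16.8% of all genes tested were higher and 15.4% lower in both. Beside Prdx5, the higher ones were Gpx3, the secreted glutathione peroxidase (log2FC 1.48 in wildtype, 1.23 in KO), and Prdx6, a peroxiredoxin that also acts on phospholipids (0.78 and 0.78). Gpx3 varied widely among the KO LPS mice, from 3.75 to 44.2 CPM, and overlapped with the PBS mice there. Beside Cat and Gpx4, the lower one was Prdx4, the peroxiredoxin of the endoplasmic reticulum (-0.75 and -0.88). The cytosolic Prdx1 (0.37 and 0.42) and Prdx2 (-0.30 and -0.34) and the mitochondrial Prdx3 (0.38 and 0.31) were under the fold threshold.

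The NADPH oxidase genes split between the catalytic subunit and its partner. Cybb (ENSMUSG00000015340, chrX:9301491-9354010, minus strand) encodes NOX2 (gp91phox), which carries the electrons across the membrane. Wildtype PBS mice had 68.3, 57.6, 69.3 and 58.5 CPM and wildtype LPS mice 363, 288, 394, 573 and 807 CPM. KO mice had 50.4, 65.7, 55.8, 76.8 and 50.8 CPM after PBS and 260, 398, 464, 496 and 477 CPM after LPS. The lowest LPS mouse, KO mouse 1, was still far above the highest PBS mouse. The log2FC was 2.93 ± 0.27 (SE), or 7.65-fold, in wildtype (adjusted p = 8.3e-08, edgeR) and 2.81 ± 0.25, or 6.99-fold, in KO (adjusted p = 3.3e-08).

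Cyba (ENSMUSG00000006519, chr8:123150422-123159706, minus strand) encodes p22phox, the partner that stabilizes NOX2 in the membrane. It was at 120, 90.2, 108 and 89.4 CPM in wildtype PBS mice and 127, 92.2, 110, 120 and 124 CPM in wildtype LPS mice. In KO it was at 97.9, 130, 100.2, 85.2 and 78.4 CPM after PBS and 95.1, 126, 114, 92.6 and 157 CPM after LPS. The groups overlapped in both genotypes. The log2FC was 0.17 (95% interval -0.17 to 0.52, adjusted p = 0.445, edgeR) in wildtype and 0.25 (-0.08 to 0.57, adjusted p = 0.212) in KO. With the neutrophil and monocyte marker score as a covariate the KO value was 0.64 (adjusted p = 0.0326) and passed, and the wildtype value was 0.62 (adjusted p = 0.0683) and did not. Reads of Cybb per read of Cyba ran from 0.571 to 0.654 in wildtype PBS mice and from 2.87 to 6.49 in wildtype LPS mice, and from 0.505 to 0.902 and from 2.73 to 5.36 in KO.

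Ncf1 (ENSMUSG00000015950, chr5:134248907-134258479, minus strand) encodes p47phox, the organizer that brings the cytosolic subunits to the membrane. It was the most abundant of the 9 genes and stood 104th of all genes tested by mean CPM. Wildtype PBS mice had 673, 548, 613 and 524 CPM and wildtype LPS mice 989, 806, 1076, 1057 and 1426 CPM. KO mice had 552, 627, 618, 602 and 502 CPM after PBS and 907, 1192, 850.5, 957 and 1449 CPM after LPS. Every LPS mouse was above every PBS mouse, with mouse 5 of each genotype the highest. The log2FC was 0.86 ± 0.17 (SE), or 1.82-fold, in wildtype (adjusted p = 4.2e-04, edgeR) and 0.88 ± 0.16, or 1.85-fold, in KO (adjusted p = 1.4e-04).

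Of the 9 genes listed for the phagocyte oxidase, 5 were higher in both genotypes, as were 16.8% of all genes tested, and none was lower. They were Cybb and Ncf1 and, with them, Ncf4 (p40phox, log2FC 1.36 in wildtype and 1.53 in KO), the GTPase gene Rac2 (1.16 and 1.06) and Hvcn1 (0.95 and 0.98), whose proton channel balances the charge that the oxidase moves. Rac1 was at -0.36 and -0.35 and Cybc1, needed for NOX2 to mature, at -0.01 and -0.02, and neither passed. Of 7 genes of other NADPH oxidases 1 had enough reads to be tested, the organizer Noxo1 (-1.06 and -1.33, lower in both), and Nox1 and Nox4 were not among those tested.

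Neutrophils and monocytes also express Cybb and Ncf1, and their markers were higher after LPS: 4 of 9 neutrophil markers in wildtype and 5 of 9 in KO, and 5 of 6 monocyte markers in each, against 18.4% of all genes tested called higher in wildtype and 20.1% in KO. With the log2 of the summed CPM of both marker lists as a covariate, the log2FC of Cybb was 2.67 in wildtype and 2.57 in KO, that of Sod2 2.86 and 2.57, and that of Ncf1 1.23 and 1.19, all still called by edgeR. The median sum of each list was itself higher after LPS in both genotypes, so the score and LPS moved together in this fit. Fn1, the monocyte marker that was not called, had the highest mean level of both lists. It was at 183 CPM after PBS and 259 CPM after LPS in wildtype, and at 172 and 243 CPM in KO. Fn1 thus weighed most in the score, which is not a direct measure of neutrophil and monocyte content. Of the 10 microglial markers 9 were lower after LPS in each genotype, against 17.4% and 19% of all genes tested, while Itgam, which encodes CD11b, was not called (0.25 and 0.07). In the same direction as Cat and Gpx4, 3 of 6 markers of border-associated macrophages were lower in each genotype (median log2FC of the list -0.72 in wildtype and -0.80 in KO), as were 2 of 4 endothelial markers, Cldn5 and Kdr (median -1.08 and -1.17). The fit with the summed markers of other brain cells, endothelial ones included, gave -1.02 in wildtype and -1.08 in KO for Cat, both still called. The part of either of these 2 cell types on its own was not tested.

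**Figure D3:**
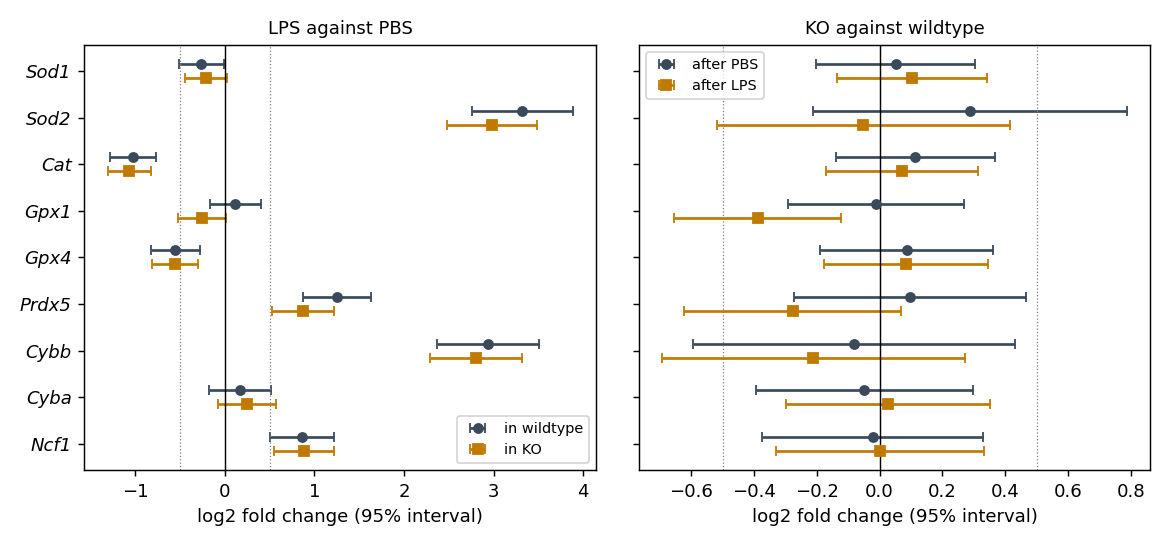
Log2 fold change of the 9 genes with its 95% interval (edgeR) for LPS against PBS (left, wildtype as circles and KO as squares) and for KO against wildtype (right, after PBS as circles and after LPS as squares), with dotted lines at the fold threshold of 0.5. On the left Sod2 and Cybb lie near 3 and Cat near -1, and on the right every value lies within 0.5 of 0.

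Across genes, levels were compared per kilobase of the canonical transcript. After PBS the order in wildtype was Ncf1 (217 ± 25 CPM per kb, SD), Cyba (128 ± 18), Gpx4 (73.7 ± 12.2), Gpx1 (62.5 ± 6.1), Prdx5 (32.7 ± 3.0), Cat (28.5 ± 2.1), Cybb (13.3 ± 1.3), Sod1 (10.5 ± 1.3) and Sod2 (10.03 ± 1.61). The mice of neighbours in this order overlapped for Gpx4 and Gpx1, Prdx5 and Cat, Cybb and Sod1, and Sod1 and Sod2. After LPS, Cybb (102 ± 44) and Sod2 (100.3 ± 46.3) stood in places 3 and 4 in wildtype, Cyba to Gpx1 overlapped from each neighbour to the next, and Cat (14.01 ± 1.59) and Sod1 (8.74 ± 0.63) closed the order. In KO after LPS, Sod2 (96.7 ± 9.7) and Cybb (88.0 ± 20.2) stood in places 3 and 4 and overlapped, and Sod1 (9.38 ± 1.54) was again last. These levels depend on the transcript model: with the union of all annotated exons as the length, Ncf1 was still first and Sod1 still last after LPS, but Cyba stood in place 3 instead of 2 in wildtype PBS mice and the level of Sod2 there was 4.604 CPM per kb. With that length Cybb stood in place 2 after LPS in both genotypes (83.4 CPM per kb in wildtype and 72.0 in KO), and Sod2 in place 6 in wildtype (46.0) and 4 in KO (44.4).

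KO and wildtype mice were then compared directly. No member passed unadjusted p under 0.05 with |log2FC| of at least 0.5, either after PBS, where 0.8% of all genes did, or after LPS, where 1.31% did, and all adjusted p were 1.00 (edgeR). After PBS the log2FC of KO against wildtype ran from -0.08 (Cybb, 95% interval -0.60 to 0.43) to 0.29 (Sod2, -0.21 to 0.79). After LPS it ran from -0.39 (Gpx1) to 0.10 (Sod1, -0.14 to 0.34). Sod2 was at -0.05 (-0.52 to 0.41), Cybb at -0.21 (-0.69 to 0.27) and Prdx5 at -0.28 (-0.62 to 0.07).

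Gpx1 after LPS was the only one of the 9 genes whose KO and wildtype groups did not overlap. The 5 KO LPS mice had 47.3 to 60.1 CPM and the 5 wildtype LPS mice 65.5 to 86.0 CPM, and groups that did not overlap were found for 0.219% of all genes tested in this comparison. The log2FC was -0.39 ± 0.13 (SE, 95% interval -0.65 to -0.12) with an unadjusted p of 0.00661 in the edgeR fit, under the fold threshold, and the adjusted p was 1.00. It did not pass a correction for the 18739 genes tested. After PBS the log2FC of Gpx1 was -0.01 (-0.29 to 0.27), with overlap, and groups that did not overlap were found for 0.971% of all genes in that comparison.

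The test of whether LPS acted differently in KO and wildtype called none of the 9 genes. No gene at all had an adjusted p under 0.05 for this interaction (0% by edgeR and 0 genes by DESeq2), while 180 genes (0.961%) had an unadjusted p under 0.05, none of the 9 among them. The smallest unadjusted p in the edgeR fit was 0.0567 for Gpx1, with an interaction of -0.38 (95% interval -0.76 to 0.01). That of Prdx5 was 0.139 in the same edgeR fit, with an interaction of -0.37 (-0.88 to 0.13). For Sod2 the interaction was -0.34 (-1.02 to 0.34) and for Cybb -0.13 (-0.83 to 0.58), and a difference of 0.5 in either direction lay within the interval for Cybb.

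Among the LPS mice, Sod2, Prdx5 and Cybb varied together over all 10 libraries. Deviations of log2 CPM from the group mean were correlated over the 10 LPS libraries for all 36 pairs of the 9 genes, with exact two-sided permutation within groups and Benjamini-Hochberg adjustment over the 36 pairs. Prdx5 and Cybb had a Pearson r of 0.924 and a Spearman rho of 0.952, with exact p of 4.9e-04 and 0.00167 and an adjusted p of 0.0175 for r. Leaving out the 2 libraries farthest from the median in Prdx5 gave an r of 0.874. Sod2 and Prdx5 had an r of 0.927 and a rho of 0.976 (exact p of 0.00514 and 9.7e-04, adjusted 0.0463 for r, and an r of 0.940 without the 2 farthest). Sod2 and Cybb had an r of 0.851 and a rho of 0.915 (exact p of 0.00465 and 0.00521, adjusted 0.0463 for r, and an r of 0.825 without the 2 farthest). With each LPS library left out in turn, r was 0.876 to 0.954 for Prdx5 and Cybb, 0.889 to 0.967 for Sod2 and Prdx5 and 0.767 to 0.902 for Sod2 and Cybb. The adjusted p was then under 0.05 in 6 of 10 fits for the first pair and in 2 of 10 for each of the others, so that these calls depend on single libraries.

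Sod1 and Cat moved oppositely over the same libraries, with an r of -0.851 and a rho of -0.879 (exact p of 0.00285 and 0.00569, adjusted 0.0463 for r), and r was -0.655 without the 2 farthest libraries. Without KO LPS mouse 5, the highest in Sod1, r was -0.714 (exact p of 0.0219, adjusted 0.113), without KO LPS mouse 1, the lowest in Sod1 and highest in Cat, it was -0.812 (adjusted 0.170), and without both it was -0.652 (exact p of 0.0736, adjusted 0.315). With each LPS library left out in turn, 3 of 10 fits had an adjusted p under 0.05. Mice 1 and 5 of this group lay at the ends of the second principal component among the LPS mice and had the highest and lowest sums of astrocyte markers (4553 and 201 CPM) and endothelial markers (523 and 61.3 CPM) of those mice. The other 32 pairs did not pass, Cyba with Ncf1 included (r of 0.783, exact p of 0.0165, adjusted 0.0741). Over the 9 PBS libraries 0 of 36 pairs had an adjusted p under 0.05 in the same exact test. Sod2 and Prdx5 still had an r of 0.815 there (exact p of 0.0174, adjusted 0.121), and Gpx1 and Cyba one of 0.918 (adjusted 0.075). Prdx5 and Cybb had an r of 0.041 and Sod2 and Cybb one of -0.373. Whether the correlations differed between PBS and LPS was not tested. Wildtype LPS mice 4 and 5, the highest in Sod2, Prdx5 and Cybb, had neutrophil marker sums of 489 and 239 CPM and monocyte marker sums of 661 and 561 CPM, against 172 to 450 and 395 to 600 CPM in wildtype LPS mice 1 to 3. Their microglial marker sums were the lowest of the group, 10637 and 11083 CPM against 13972 to 17122 CPM, while the mouse lowest in Prdx5 and Cybb in each genotype had the highest oligodendrocyte marker sum of its group (6692 CPM in wildtype mouse 2 and 11235 CPM in KO mouse 1). The part of these markers in the covariation was not tested.

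**Figure D4:**
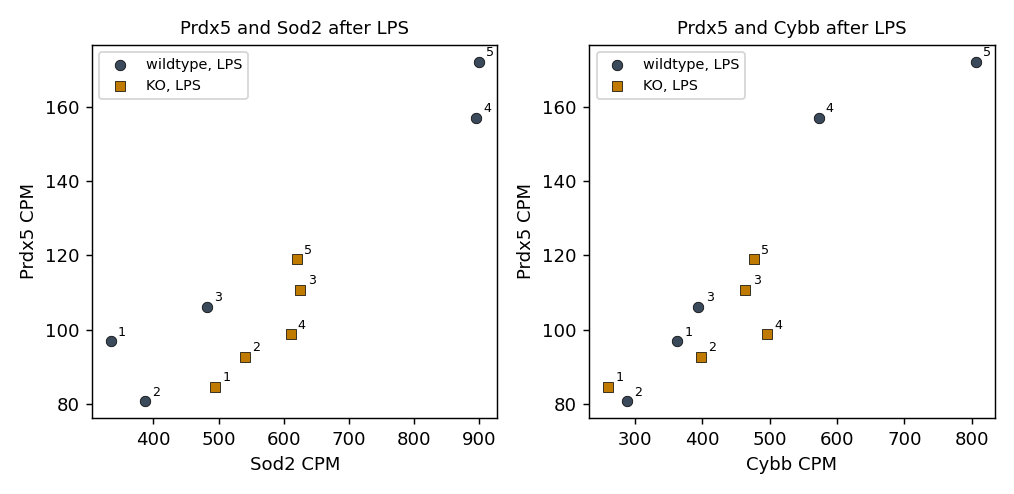
Prdx5 CPM against Sod2 CPM (left) and against Cybb CPM (right) in the 10 LPS mice, wildtype as circles and KO as squares, numbered by mouse. Wildtype mice 4 and 5 lie at the top right with Prdx5 at 157 and 172 CPM, and within each genotype a mouse with more Sod2 or Cybb tended to have more Prdx5.

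The genes whose log2 CPM followed each member most closely over the 19 libraries were found as a description, since all 19 libraries share the contrast of LPS and PBS. Sod2 was followed by Fmnl2, a formin (Pearson r = 0.997), the syndecan gene Sdc4 (0.994) and Ch25h, which encodes cholesterol 25-hydroxylase (0.994). Cybb was followed by the glutaredoxin gene Glrx (0.995), Irak3 (0.993) and Bcl2a1d (0.993), and Prdx5 by the prolyl hydroxylase gene Egln2 (0.972), Dtx2 (0.971) and AW112010 (0.969). Ncf1 was followed by Heatr6 (0.982), Acsl5 (0.970) and Fyb1 (0.969), and Cat by the tight junction gene Tjp1 (0.985), Prkch (0.984) and Vangl2 (0.981). Likeness was lower for Gpx4, led by Ptgr3 (0.944), Gpx1, led by Tsc22d4 (0.886), and Sod1, led by the unclassified gene Gm45073 (0.866).

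The supply of reduced thioredoxin, glutathione and NADPH that these enzymes draw on was described by lists of genes. Of 16 genes of thioredoxin and glutathione supply, 9 were higher after LPS in both genotypes, as were 16.8% of all genes tested. Slc7a11, the cystine importer, had a log2FC of 4.12 ± 0.54 in wildtype and 4.09 ± 0.49 in KO, from 21.0 to 59.6 CPM after PBS to 260 to 1208 CPM after LPS across both genotypes. The reductases of the 2 systems were higher as well, Txnrd1 (thioredoxin reductase, 2.50 and 2.87) and Gsr (glutathione reductase, 2.05 and 1.72), and so were Glrx (2.71 and 2.41), Glrx5 (1.13 and 1.10), Txn1 (1.46 and 1.15), Txn2 (0.71 and 0.75), Txnrd3 (0.73 and 0.81) and Srxn1 (1.22 and 1.24), which repairs overoxidized peroxiredoxins. The mitochondrial reductase gene Txnrd2 was called lower in KO (-0.51) and was at -0.42 in wildtype. Gclc, Gclm and Gss, the genes of glutathione synthesis, had values of -0.49 to 0.12 and were not called.

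Of 7 genes of NADPH supply, Pgd of the pentose phosphate pathway was higher (1.12 and 1.01) and Idh1 (-1.21 and -1.41), Idh2 (-1.32 and -1.45) and Nnt (-0.69 and -0.72) were lower in both genotypes. G6pdx, the first enzyme of that pathway, passed in wildtype (0.56) and was at 0.37 in KO, and the difference was not called by the interaction. Of 4 granule and secreted peroxidase genes 3 were tested, none was called in wildtype, and in KO Lpo was higher and Mpo, the myeloperoxidase of neutrophil granules, was lower. Lpo was at 0 to 0.185 CPM in KO PBS mice, at or under 4 counts, and at 0.0722 to 1.01 CPM in KO LPS mice. Mpo was at 0.217 to 0.598 CPM in KO LPS mice, and in KO PBS mice it ran from 0.0508 CPM (1 count) to 11.2 CPM in 1 mouse, with a median of 0.972 CPM, so that the groups overlapped. Over all lists 62 genes were named and 52 tested, of which 20 were higher and 8 lower in wildtype, against 18.4% and 17.4% of all genes tested, and 20 higher and 10 lower in KO, against 20.1% and 19%. The lists had a median log2FC of 0.14 and 0.08 against -0.06 and -0.01 over all genes tested. KO against wildtype called 0 of the 52 after PBS, against 0.8% of all genes, and 1 after LPS, against 1.31%. That gene was Txnrd1, at 318 to 749 CPM in KO and 200 to 423 CPM in wildtype LPS mice (log2FC 0.55 ± 0.22, unadjusted p of 0.0221 and adjusted p of 1.00, edgeR), with overlap.

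**Figure D5:**
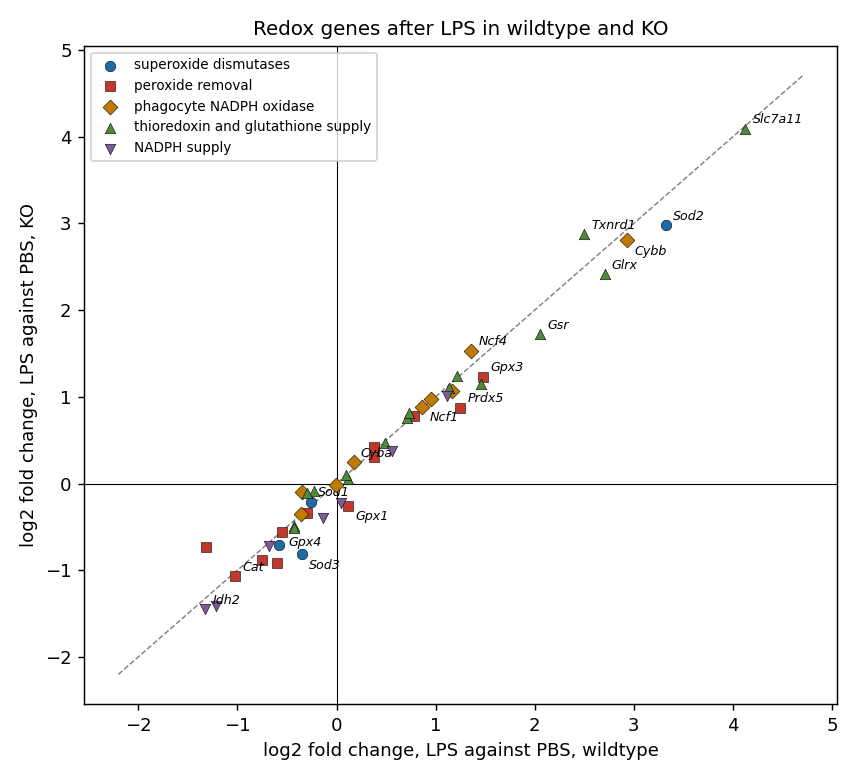
Log2 fold change of LPS against PBS in wildtype (horizontal) and KO (vertical) for the tested genes of 5 redox lists, with a dashed line where both are equal. Slc7a11, Sod2, Cybb, Txnrd1, Glrx and Gsr lie at the upper right and Idh2 and Cat at the lower left. The 2 axes share no mouse.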

How the data were processed

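RNA of CD11b+ brain cells from 19 mice was sequenced as ribosome-depleted, stranded total RNA. Per the labels and the study's methods, adapters were removed by cutadapt, and STAR 2.7.9a aligned and counted the reads against GRCm39 and its Ensembl genes. What the authors deposited are these counts per gene and mouse, unnormalized. GENCODE M39 named 56236 of the 56980 genes. Whether strand was used in counting is not given in the sources used here.

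The model was fitted with edgeR 4.0.16 under R 4.3.3. filterByExpr (minimum count 10, minimum total 15) left 18739 genes, TMM scaled the libraries, and all 19 libraries entered a single quasi-likelihood fit of 4 groups, with Benjamini-Hochberg adjustment over all genes. LPS against PBS was called at adjusted p under 0.05 and KO against wildtype at unadjusted p under 0.05, both with |log2FC| of at least 0.5, and the interaction at adjusted p under 0.05. The SE is the log2FC divided by the square root of F. Total counts were 11936364 to 22788884 per library, so 3 counts are 0.139 to 0.256 CPM, a limit that covers counting error only. No 2 libraries of a group were alike within counting noise (chi-square per degree of freedom of at least 6.5), and each is 1 replicate.

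The 9 genes were set by name, and the members, the redox and marker lists and the motifs were chosen with earlier results of these data known. Genes named from the lists are those called and fixed partners of the members, and likeness takes the 3 genes with the highest Pearson r of log2 CPM (prior count of 2). A few genes that these rules name are not reported here. Same-numbered mice are different animals, and the numbers were not treated as pairs. Promoter stretches are the 250 bases before the canonical start. In simulated counts for LPS against PBS in wildtype, edgeR called 45.4% of 97 genes changed 2-fold, 71.7% of 99 changed 4-fold and 4 of 18155 unchanged genes. These calls used adjusted p under 0.05 without the fold threshold. The simulation changed 200 genes, while 35.9% of all genes were called in the data for this comparison. Adjustment over so few changes is stricter, so these rates do not carry over to the LPS calls here. The ratio of Sod2 to Sod1 was tested on reads, since its change does not depend on length. Alternatives were no low-count filter, a floor of 10 counts per sample, size factors of DESeq2, ribosomal and mitochondrial RNA left out, DESeq2 1.42.0, only the groups compared, a replicate block, each mouse left out and, chosen after seeing the data, 2 marker scores as covariates, another length and LPS libraries left out of the correlations.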

Additional observations from a re-analysis of the deposited data

Results flagged for a closer look

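Of the 36 combinations of gene and group, 1 held a mouse set apart from the rest of its group. Sod2 was at 74.4 CPM in wildtype PBS mouse 2, where the nearest of the other 3 mice was at 57.2 CPM. The same mouse had the highest marker sums of other brain cells in its group, with 9675 CPM for oligodendrocytes against 985 to 1717, 3106 CPM for astrocytes against 552 to 1015 and 826 CPM for endothelial cells against 270.3 to 556, and their part in this value was not tested. The rule was Dixon's test, the gap to the nearest mouse over the range of the group, which was 0.849 here. At its nominal level, chance sets a mouse apart in about 1 of 20 groups if values within a group are normally spread.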

How the results depend on the processing

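The LPS calls on Sod2, Cybb, Ncf1 and Cat held in both genotypes under all 9 alternatives and with each mouse left out, with log2FC over the alternatives of 2.86 to 3.34 and 2.57 to 3.00 for Sod2 and 2.67 to 2.95 and 2.57 to 2.82 for Cybb in wildtype and KO. The call on Gpx4 was lost with some mice left out (-0.62 to -0.45 in wildtype, -0.64 to -0.49 in KO), so the number of the 9 genes called lower was 1 to 2 in each genotype. With the neutrophil and monocyte score as a covariate, Prdx5 in KO was at 0.68 and lost its call, Cyba in KO was at 0.64 and gained one, and Gpx1 in KO turned to 0.078. The change of the log2 ratio of Sod2 to Sod1 was 3.31 to 3.63 in wildtype and 3.13 to 3.30 in KO with each mouse left out.

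Same-numbered PBS and LPS mice had correlated deviations of -0.04 to 0.58 in wildtype and 0.03 to 0.54 in KO, and 5 of 9 and 6 of 10 libraries matched their own number best, a hint from the data and not from the design. Wildtype LPS mouse 5 had no same-numbered PBS mouse and could not match. The share expected by chance was not computed. With the replicate block the LPS calls on the 9 genes did not change (Sod2 3.20 in wildtype and 2.96 in KO), and KO against wildtype turned to 0.0077 for Gpx1 after PBS and to 0.0030 for Sod2 and -0.0013 for Ncf1 after LPS, while 189 genes were called lower after PBS in place of 108.

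Other values that changed sign were all of genotype or interaction results that were not called. After LPS, KO against wildtype for Ncf1 was -0.022 without the filter, -0.020 with at least 10 counts in every sample, -0.00100 without ribosomal and mitochondrial RNA and -0.073 with the neutrophil and monocyte score, which also gave 0.040 for Sod2 and -0.054 for Cyba. The interaction of Gpx4 was 0.012 with at least 10 counts, 0.019 with DESeq2's size factors, 0.020 with DESeq2 and 0.024 with that score, and that of Ncf1 -0.034 with that score. With each mouse left out, KO against wildtype after PBS ranged from -0.11 to 0.067 for Gpx1, -0.17 to 0.041 for Cyba, -0.063 to 0.049 for Ncf1 and -0.019 to 0.14 for Sod1. After LPS it ranged from -0.13 to 0.13 for Ncf1, -0.10 to 0.099 for Cyba, -0.20 to 0.14 for Sod2, -0.35 to 0.051 for Cybb (-0.21 with all mice, 0.051 without wildtype LPS mouse 5) and -0.0076 to 0.15 for Gpx4. The interaction ranged from -0.10 to 0.064 for Gpx4, -0.055 to 0.20 for Cyba, -0.11 to 0.15 for Ncf1, -0.041 to 0.12 for Sod1, -0.27 to 0.13 for Cybb and -0.10 to 0.029 for Cat. The cause was not tested.

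The background of all genes called in KO against wildtype moved with the settings, from 42 higher and 108 lower after PBS and 102 and 143 after LPS. Without the filter it was 241 and 439 after PBS and 347 and 507 after LPS, with more genes tested, and with at least 10 counts in every sample 6 and 52, and 42 and 69, with fewer. With only the groups compared it was 36 and 69 after LPS, and with the score of other brain cells 166 lower after PBS. With each mouse left out it was 30 to 94 higher and 67 to 153 lower after PBS and 100 to 204 and 105 to 270 after LPS.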
